A study of Mus musculus with 6 samples.

Results

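The miR-181 family of the mouse was followed on arrays of bone endothelial cells (ECs). Its members were taken by name as the 5p (guide) strands mmu-miR-181a-5p, mmu-miR-181b-5p, mmu-miR-181c-5p and mmu-miR-181d-5p, written below without the species prefix. They are 4 of the 1881 mouse miRNAs on the array. The rule names no measured value, but the family was chosen with earlier results of these data known. The arrays compared type H ECs, sorted as CD31hiEmcnhi, with type L ECs, sorted as CD31loEmcnlo, and asked which miRNAs differ between the cells of these bone capillaries. Each cell type had 3 arrays, which the labels call biological replicates. Whether each array came from separate mice is not stated, so p-values measure the spread between these arrays. Both cell types came from bone marrow of C57BL/6 wild-type mice aged 1 month, and neither carried a transgene or received an agent. The labels give the mice as male and the methods as female. The labels describe culture of the sorted cells in endothelial growth medium before RNA was taken.

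MiRNAs are short RNAs that guide the silencing of messenger RNAs, and targets are recognised largely through the seed, the stretch near the 5′ end of the strand. Members of a family share that seed, so they can act on the same sites, and they differ in the remainder of the strand. The miR-181 family is known from lymphocyte development, and miR-181b is known from endothelium as a brake on NF-κB signalling in vascular inflammation.

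The mature strands are shown because their likeness sets what an array can tell apart. They are from RefSeq (GRCm38.p6), run 5′ to 3′, and carry the seed, bases 2 to 8, in capitals.
miR-181a-5p: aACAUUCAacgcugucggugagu
miR-181b-5p: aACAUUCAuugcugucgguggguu
miR-181c-5p: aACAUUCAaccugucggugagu
miR-181d-5p: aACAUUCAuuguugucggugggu

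All 4 had the same seed, and among the 1679 mature mouse miRNA names listed no other had it. The family falls into 2 close pairs. MiR-181a-5p and miR-181c-5p were 1 edit apart (a substitution, insertion or deletion), and miR-181b-5p and miR-181d-5p were 2 edits apart. Across the pairs the distance was 4 or 5 edits.

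These strands are encoded in clusters of hairpins. Mir181a-1 and Mir181b-1 lie together on chromosome 1, Mir181a-2 and Mir181b-2 lie together on chromosome 2, and Mir181c and Mir181d lie together on chromosome 8. By RefSeq, the pair on chromosome 2 lies within Nr6a1, a nuclear receptor gene, and within the antisense gene Nr6a1os, while the hairpins on chromosomes 1 and 8 overlapped no other listed gene. MiR-181a-5p and miR-181b-5p each come from 2 hairpins with the same mature strand, so the arrays give the sum of both loci. In the files' annotation (mm9) the longer miR-181a-5p probe maps to chr1:139863054-139863067 and chr2:38708270-38708283, and the longer miR-181b-5p probe to chr1:139863236-139863249 and chr2:38709374-38709387, on the plus strand. The miR-181c-5p probe of 19 bases is listed at chr8:86702792-86702809 and the miR-181d-5p probe of 17 bases at chr8:86702628-86702643, both on the minus strand, and each listed interval is 1 base shorter than its probe.

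Each member was read by 2 probes, which pair with the strand from its 3′ end, or from 1 base short of it for miR-181b-5p. The probes of miR-181a-5p and miR-181b-5p leave the seed out, and those of miR-181c-5p and miR-181d-5p reach into part of it. The probes are shown because the results for miR-181a-5p and miR-181d-5p turn on them. Capitals mark the bases that do not pair, in an alignment without gaps, with 1 other member. That member is miR-181b-5p for the probes of miR-181a-5p and miR-181d-5p. For the shorter miR-181b-5p probe and the miR-181c-5p probe it is miR-181a-5p, and for the longer miR-181b-5p probe it is miR-181d-5p. No other member had fewer mismatches to a probe than the one marked, but miR-181c-5p was equally close to both miR-181a-5p probes, and miR-181d-5p was equally close to the shorter miR-181b-5p probe.
miR-181a-5p, 13 bases: acTcaccgacagc
miR-181a-5p, 14 bases: acTcaccgacagcG
miR-181b-5p, 13 bases: acCcaccgacagc
miR-181b-5p, 14 bases: acccaccgacaGca
miR-181c-5p, 18 bases: actcaccgacagGTtGAa
miR-181d-5p, 17 bases: acccaccgacaAcaatg

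The probes of the members that were detected were thus short and alike. The 13-base probes of miR-181a-5p and miR-181b-5p each had 1 mismatch to the other strand, and the 14-base probes had 2. The 17-base probe of miR-181d-5p had 1 mismatch to miR-181b-5p, and the 18-base probe of miR-181c-5p had 4 mismatches to miR-181a-5p. Mismatches were counted without gaps, and miR-181a-5p and miR-181c-5p are only 1 edit apart, so the 4 overstate how far that probe is from miR-181a-5p. How much signal a probe takes from the neighbouring member was not tested.

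Several facts of the series bear on every value. All type H arrays shared 1 slide and all type L arrays another, so a difference between slides cannot be told apart from one between cell types. The controls differed too. Control probes of 1 type were compared where they were flagged detected, with a signal above 0, on all 6 arrays. All 28 of these had a higher signal with type H, by log2 differences of 0.19 to 1.48. The scanner software flagged 263 to 281 miRNAs as detected per type H array and 295 to 309 per type L array. The marker miRNAs of the sorted cell type were below detection. Among endothelial marker miRNAs, 0 of 2 arms of miR-126a were detected on any array, with summed totals of 2.49 to 4.74 on type H and -0.0959 to 0.666 on type L arrays (values below 0 after background subtraction are kept in such sums). Of the stromal and mural markers (miR-143, miR-145a, miR-199a, miR-214, miR-140 and miR-455), 8 of 8 were detected and 6 of them on all 6 arrays. Their summed total was 901 to 1142 on type H and 770 to 881 on type L arrays. At a limma adjusted p under 0.05, 6 of the 8 were higher and 1 lower in type H. Over all 311 miRNAs tested 86.8% passed, with 44.7% higher and 42.1% lower, so the number called is near that share. The part of these markers in the results below was not tested. Of the 6 haematopoietic markers on the array, 0 were detected, at summed totals of 4.75 to 7.28 on type H and -0.676 to 0.490 on type L arrays.

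In these cells miR-181a-5p was lower in type H ECs, miR-181b-5p was detected on every array and overlapped between cell types before scaling, and miR-181c-5p and miR-181d-5p were not detected on any array. The signal of a miRNA is given here as its own total, the sum of the scanner's total signals of its 2 probes, in arbitrary units. Probes differ in affinity, so totals rank arrays within a member and not members against each other, and fewer cells of a type and less RNA per cell cannot be told apart in such bulk samples.

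MiR-181a-5p, one of the strands known from T-cell development, had own totals of 2.89, 2.54 and 2.17 on the type H arrays and 5.26, 5.75 and 5.57 on the type L arrays. The highest type H array stood well under the lowest type L array. The means were 2.53 ± 0.357 (SD, n = 3) in type H and 5.52 ± 0.249 (SD, n = 3) in type L, a ratio of 2.18 between the unscaled means. It was flagged detected on 1 of 3 type H arrays (replicate 1) and on 3 of 3 type L arrays.

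MiR-181b-5p, the member known from vascular inflammation, had own totals of 10.7, 8.22 and 8.57 on the type H arrays and 8.94, 9.79 and 10.2 on the type L arrays. The cell types overlapped, because the brightest array of all and the dimmest were both of type H. Their means were 9.17 ± 1.36 and 9.63 ± 0.623 (SD, n = 3 each). It was detected on all 6 arrays.

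MiR-181c-5p had own totals of 1.54, 0.667 and 0.603 on the type H arrays and 0.0719, 0.112 and 0.101 on the type L arrays. The type H values lay above the type L values without overlap, but none of the 6 was flagged detected. MiR-181d-5p had own totals of 2.65, 2.24 and 2.40 on the type H arrays and 2.28, 2.46 and 2.18 on the type L arrays, which overlapped, and it too was detected on 0 of 6 arrays. No fold change is given for these strands, since both cell types were below detection, and a low level cannot be told from absence.

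**Figure D1:**
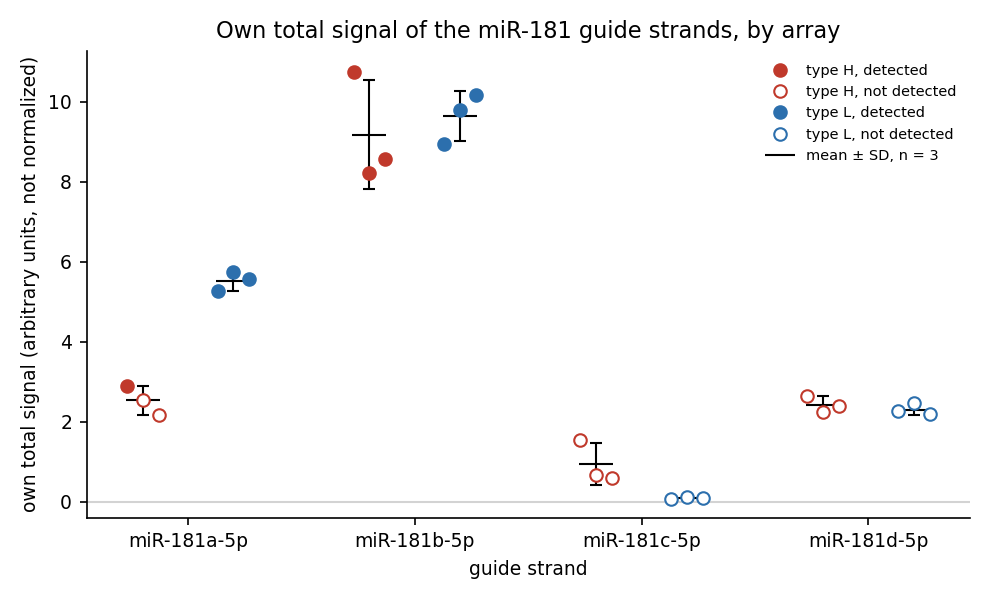
Own total signal (arbitrary units, not normalized) of each miR-181 guide strand on each array, with type H in red and type L in blue, filled where the miRNA was flagged detected and open where it was not; bars are mean ± SD, n = 3. MiR-181a-5p sits at 2.17 to 2.89 on type H and at 5.26 to 5.75 on type L arrays, miR-181b-5p overlaps between cell types, and the points of miR-181c-5p and miR-181d-5p are all open.

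What separated detected from not detected was examined at the level of probes. The scanner software gives each probe total an error, and the detected flag matched a simple rule, that at least 1 probe of the miRNA has a total over 3 times its error, for 11286 of 11286 combinations of miRNA and array. For miR-181a-5p the 14-base probe decided the flag. Its ratio of total to error was 3.09, 2.85 and 2.97 on the type H arrays and 4.38, 5.34 and 4.82 on the type L arrays. The type H arrays therefore straddled the threshold closely, from 2.85 to 3.09, and the array flagged detected lay next to the others. The probe's own total was 2.43, 2.14 and 2.10 on type H and 3.84, 4.24 and 4.14 on type L arrays.

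The 13-base probe of miR-181a-5p stayed under the threshold on every array, with ratios of 0.108 to 0.614 on type H and 1.77 to 2.20 on type L arrays. It moved the same way as its partner. All 15 spots of the 14-base probe were significantly above background on every array, but the stricter flag, well above background, was set for 1, 0 and 1 of 15 spots on type H and 7, 13 and 10 on type L arrays. Of the 13-base probe, 5, 4 and 3 spots were significantly above background on type H and 13, 15 and 14 on type L arrays.

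Both miR-181b-5p probes passed on every array. The 14-base probe had ratios of 5.82 to 7.04 and all 15 of its spots were well above background on each array, and the 13-base probe had ratios of 3.44 to 4.30. For miR-181d-5p the 17-base probe came close without passing, with ratios of 2.24, 1.94 and 2.75 on type H and 2.32, 2.50 and 1.996 on type L arrays. Between 13 and 14 of its 15 spots were significantly above background on each array, so this probe had a weak signal in both cell types below the level that the flag requires. The probe has 1 mismatch to miR-181b-5p, and which of the strands gave that signal was not tested. The highest ratio of any miR-181c-5p probe was 1.33.

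**Figure D2:**
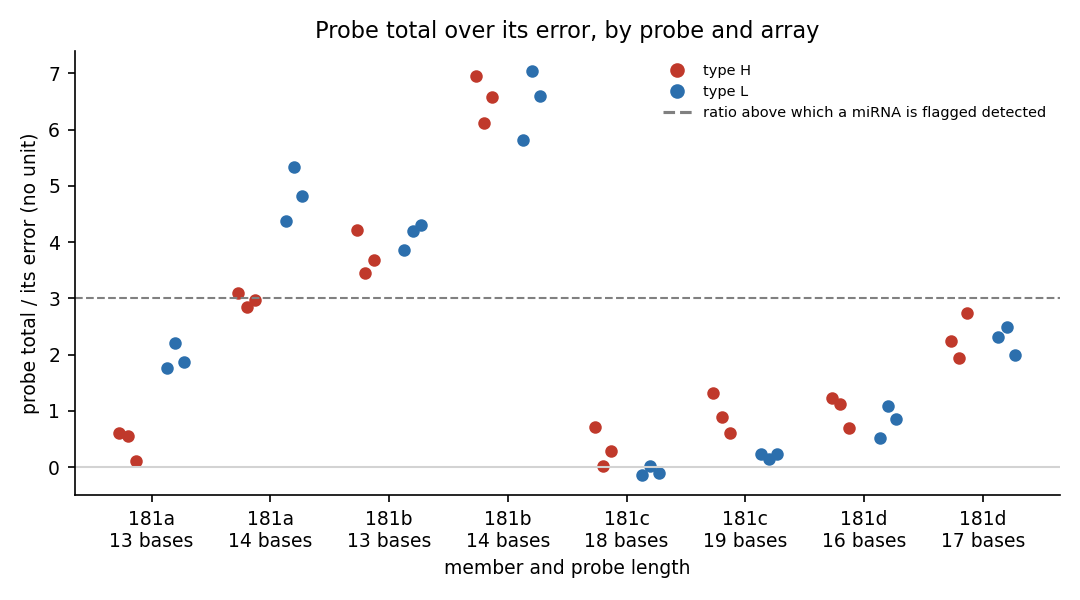
Ratio of each probe's total signal to its error (no unit), for the shorter and longer probe of each member, with 1 point per array, type H in red and type L in blue; the dashed line at 3 is the ratio above which a miRNA is flagged detected. The type H points of the 14-base miR-181a-5p probe lie at 2.85 to 3.09 around the line, while the 17-base miR-181d-5p probe reaches 2.75.

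Between cell types, miR-181a-5p was 1.69-fold lower in type H ECs, a log2 fold change of -0.76 (SE 0.049, 95% confidence interval -0.88 to -0.64, limma adjusted p = 3.36e-05). These values are on the scale of quantile-normalized own totals with values under 1 set to 1. MiR-181a-5p passed the filter for testing through type L only, where it was detected on 3 of 3 arrays, so its type H side rests on signals of which 1 of 3 was flagged detected. The normalized log2 levels were 1.47, 1.57 and 1.48 on the type H arrays and 2.19, 2.33 and 2.28 on the type L arrays, without overlap. With 3 arrays a side the exact two-sided permutation test cannot fall below 0.10, and p = 0.10 was reached. The 14-base probe fitted alone gave -0.47 (SE 0.047). The 13-base probe was at the floor on every type H array and under the detection ratio on all 6, so no fold change is read from it.

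MiR-181b-5p was 1.23-fold higher in type H ECs on the same scale, a log2 fold change of 0.30 (SE 0.071, 95% confidence interval 0.12 to 0.48, limma adjusted p = 0.00885). Its normalized log2 levels were 3.41, 3.27 and 3.45 on the type H arrays and 2.97, 3.11 and 3.15 on the type L arrays. The levels did not overlap once normalized, although the unscaled totals did. The exact permutation test again gave its smallest value, 0.10. The direction of this difference depended on the scaling. With each array scaled to its 75th percentile the log2 fold change was -0.18 (SE 0.056, limma adjusted p = 0.0181), and without normalization it was -0.08 (SE 0.14, limma adjusted p = 0.610).

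The scalings also shifted the centre of all fold changes. The median log2 fold change over the 311 miRNAs tested was 0.03 after quantile normalization, -0.27 after percentile scaling and -0.17 without normalization. Set against that median, miR-181b-5p was higher by 0.27, 0.09 and 0.09, and miR-181a-5p was at -0.79, -0.97 and -0.97. Relative to other miRNAs, then, miR-181a-5p was lower in type H under each of these scalings, and miR-181b-5p lay within 0.27 of the median. MiR-181a-5p passed the filter through type L only, and a pass of that kind favours miRNAs that are lower in type H.

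Across the array 270 of 311 miRNAs tested passed the adjusted p threshold of 0.05, which is 86.8%, with 139 (44.7%) higher and 131 (42.1%) lower in type H. Of the 4 members 2 could be tested and 2 passed, which at that background is not a result about the family. Of all calls 51.5% were higher in type H after quantile normalization, against 35.8% after percentile scaling and 40.3% without normalization.

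**Figure D3:**
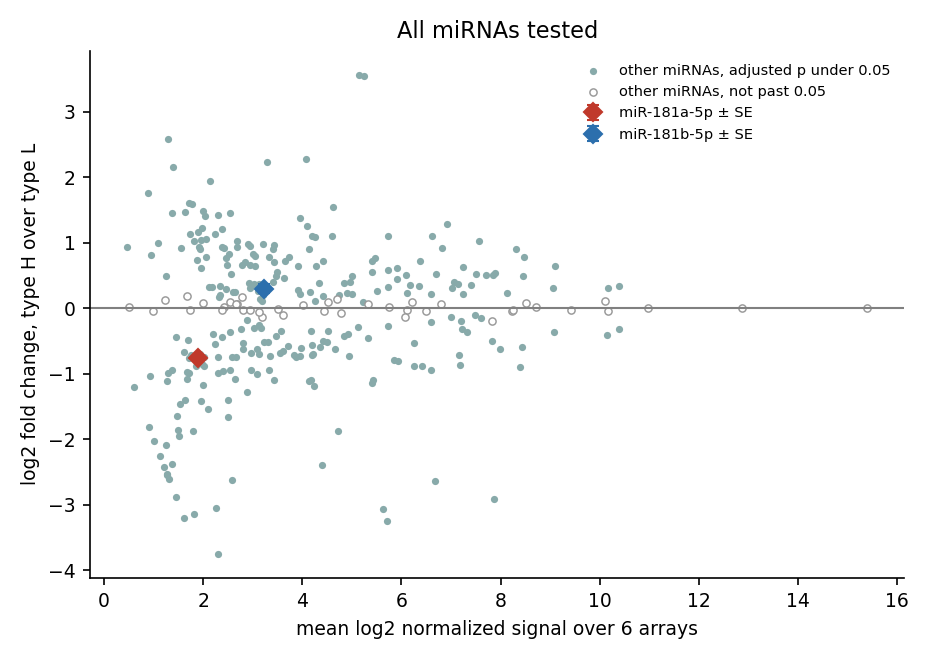
Log2 fold change, type H over type L, of each of the 311 miRNAs tested against its mean log2 normalized signal over the 6 arrays; filled points passed an adjusted p of 0.05 (limma), open points did not, and diamonds with SE bars are miR-181a-5p (red) and miR-181b-5p (blue). MiR-181a-5p, at -0.76, lies among dim miRNAs and miR-181b-5p, at 0.30, lies within the bulk of the points.

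Whether the close relatives changed unequally was asked within each array, where scaling has little or no effect. The level of such a difference depends on the probes, so only its change between cell types is read. On the normalized log2 scale, miR-181a-5p minus miR-181b-5p was -1.94, -1.70 and -1.97 on the type H arrays and -0.78, -0.78 and -0.87 on the type L arrays. The 3 type H arrays all lay lower, with no overlap. The difference between cell types was -1.06 (SE 0.093, exact permutation p = 0.10, the smallest possible, with 1 pair compared), and it was -1.06 (SE 0.091) on the scale without normalization. On these scales the strands of 2 shared clusters differed in their change by more than the spread between arrays. MiR-181a-5p was flagged detected on 1 of 3 type H arrays and passed the filter through type L only, so the contrast carries that limit. Its size also depended on the background correction, as it was -0.17 (SE 0.021) with normexp. Which of the strands moved cannot be read from a ratio.

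**Figure D4:**
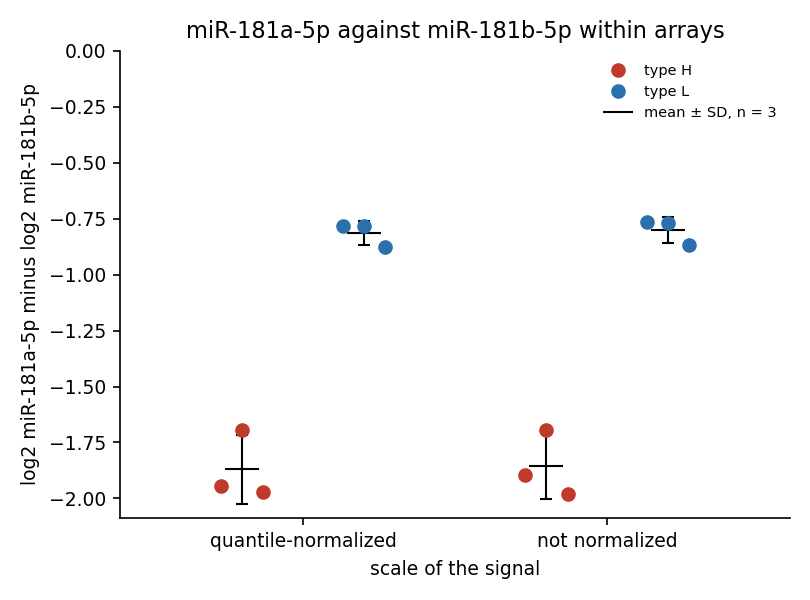
Log2 signal of miR-181a-5p minus that of miR-181b-5p within each array, on the quantile-normalized scale and without normalization, with type H in red and type L in blue; bars are mean ± SD, n = 3. Type H arrays lie between -1.98 and -1.69 and type L arrays between -0.87 and -0.77 on both scales.

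The size of the miR-181a-5p difference depended on how the miRNA was summed. The deposited total of miR-181a-5p was 188, 0.1 and 0.1 on the type H arrays and 136, 150 and 154 on the type L arrays. The value of 0.1 stands where the miRNA was not detected. On the 4 arrays where it was detected, the deposited total was far above the sum of its probes. On type H replicate 1, the part beyond its detected probe (2.43) was 186, which equals the deposited total of miR-17-5p on that array. On the type L arrays the part beyond its detected probe was 132.3, 145.4 and 149.9, which equals the deposited total of miR-17-3p there, within a relative tolerance of 1e-05. These deposited miR-17 totals were themselves far above the own totals of those strands. The own totals were 2.80 for miR-17-5p on type H replicate 1, and 4.38, 4.26 and 5.02 for miR-17-3p on the type L arrays. How the deposited totals came to hold these amounts was not tested, and own totals were used for that reason.

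From deposited totals, the log2 fold change of miR-181a-5p was -4.78 (SE 2.23, limma adjusted p = 0.113), which no longer passed the threshold. In the authors' table of log2 values it stood at -0.10, -3.26 and -3.26 on the type H arrays and at 1.68, 1.33 and 1.48 on the type L arrays. There replicates 2 and 3 of type H share the level of the members that were never detected, -3.26 to -3.32, and the log2 fold change was -3.70 (limma adjusted p = 0.0154). The deposited totals differ from own totals in the 0.1 given to arrays under the threshold of 3. They also hold the deposited miR-17 total on the arrays where miR-181a-5p was detected. With own totals and only the first of these changed, that is with miRNAs not detected set to 0.1, a setting added after the data were seen, the log2 fold change was -1.72 (limma adjusted p = 0.0125). With normexp background correction and its offset of 50 it was -0.09 (limma adjusted p = 0.000195), with percentile scaling -1.23, and with the 14-base probe alone -0.47, so the sign held in each of these settings while the size did not.

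In the authors' table miR-181b-5p stood at 3.42, 3.24 and 3.42 on the type H arrays and at 2.96, 3.06 and 3.13 on the type L arrays. The log2 fold change there was 0.31, close to that from own totals. Both probes fitted alone gave a rise, at 0.23 (SE 0.072, limma adjusted p = 0.0351) and 0.27 (SE 0.072, limma adjusted p = 0.0227), on the quantile-normalized scale.

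**Figure D5:**
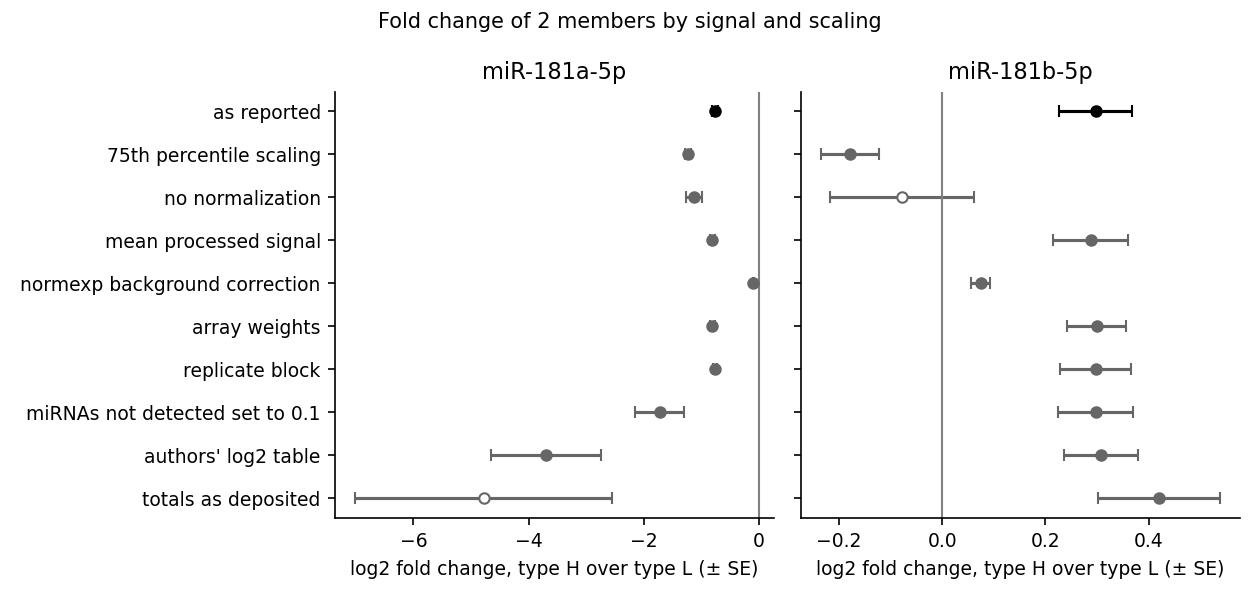
Log2 fold change, type H over type L, with its SE, of miR-181a-5p (left) and miR-181b-5p (right) under each signal and scaling; the horizontal axes have different ranges, filled points passed an adjusted p of 0.05 and open points did not. MiR-181a-5p stays below 0 from -0.09 to -4.78, and miR-181b-5p lies above 0 except with percentile scaling (-0.18) and without normalization (-0.08).

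The passenger (3p) strands, which are usually degraded when the guide is loaded, gave no second measure of the family. All 6 of them, miR-181a-1-3p, miR-181a-2-3p, miR-181b-1-3p, miR-181b-2-3p, miR-181c-3p and miR-181d-3p, were on the array and 0 were detected on any array. Their summed total was below 0 on every array, at -0.866 to -0.268 on type H and -2.83 to -1.96 on type L arrays. MiR-181a-1-3p had own totals of 1.10, 0.962 and 0.800 on type H and 0.617, 0.837 and 0.986 on type L arrays, which overlapped. These strands differ between the chromosome 1 and chromosome 2 hairpins, but at this level they could not show which hairpin the guide strands came from.

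The miRNAs whose pattern over the 6 arrays was most like that of miR-181b-5p were sought among the 230 others detected on every array, by the root mean square difference of log2 levels, each less its own mean. They were miR-152-3p (0.0444), miR-26b-5p (0.0461) and miR-320-3p (0.0496), against a median of 0.248 over the candidates. Their log2 fold changes were 0.32, 0.23 and 0.24, which the search itself holds close to that of miR-181b-5p. MiR-181a-5p was not detected on all 6 arrays and was left out of this search.

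Other miRNAs known from the same settings were read from named lists. Of 12 miRNAs of vascular inflammation and NF-κB signalling, 11 were on the array and 6 were tested, with 3 higher, 2 lower and 1 not past the threshold in type H, a share called near the 86.8% over all miRNAs tested, and their median log2 fold change was 0.14 against 0.03 over all of them. In that list miR-17-3p, which lowers ICAM1 in endothelium, was at 0.32, and miR-92a-3p, which limits vessel growth, was at 1.10, and both passed. MiR-31-5p, which lowers E-selectin, was at -0.03 and did not pass (limma adjusted p = 0.449), and miR-221-3p was at 0.73. The members that were lower, named after their values were seen, were miR-222-3p, a neighbour of miR-221, at -0.35 (limma adjusted p = 0.00173) and let-7g-5p at -0.13 (limma adjusted p = 0.0204). MiR-146a-5p and miR-155-5p, which are regulators of NF-κB signalling and inflammation, were not detected on any array.

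Of 12 miRNAs of lymphoid and myeloid development, 5 were tested, with 3 higher, 1 lower (miR-222-3p) and 1 not past the threshold, which is again near the 86.8% called over all miRNAs, and their median log2 fold change was 0.49. MiR-20a-5p of the miR-17/92 cluster was at 1.29, miR-34a-5p, a p53 target, was at -0.03 (limma adjusted p = 0.367), miR-24-3p was at 0.49 and miR-221-3p again at 0.73. The blood-cell strands miR-142a-3p, miR-150-5p and miR-223-3p were detected on 0 of 6 arrays. Which cells gave the signals of miR-181a-5p and miR-181b-5p was not tested.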

How the data were processed

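Type H and type L ECs were profiled on 3 Agilent miRNA arrays each, in 1 colour. The authors extracted background-subtracted spot intensities with Feature Extraction 10.7.1.1 and deposited them with arrays not normalized to each other. A second deposited table holds log2 values, quantile-normalized per the methods, whose offset at the floor is unknown. The array design number in the file headers is not that of the methods, and the labels describe amplified cRNA where the methods describe labelled small RNA.

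Own totals (the scanner's total signal summed over the distinct probes of a miRNA) were quantile-normalized over 1881 miRNAs, floored at 1 and log2-transformed. MiRNAs flagged detected on every array of type H, of type L or of both (311) were fitted with limma 3.58.1 (lmFit, eBayes) in R 4.3.3 over all 6 arrays, adjusted by Benjamini-Hochberg at a threshold of 0.05. The floor can shrink the fold of dim miRNAs, and by how much was not tested. The fit was checked on simulated data. The number of arrays limits the precision. The arrays hold 4415 miRNA probes, with 30 spots per miRNA, and no spot of a member was saturated.

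The text names the 4 members, the passenger strands, the 3 most similar miRNAs, and the first 4 tested of each list, beside list members not detected. Members and lists were chosen with earlier results of these data known. Alternatives varied scaling, signal, filter, floor, test, array weights, replicate block and left-out arrays.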

Additional observations from a re-analysis of the deposited data

How the results depend on the processing

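MiR-181a-5p kept its direction in 20 of 20 alternatives and its call in 19, the exception being the totals as deposited (-4.78, limma adjusted p = 0.113). These include its shorter probe alone, from which no fold change is read. Apart from detection on at least 1 array, they keep the filter that miR-181a-5p passed through type L only, which favours a fall. They also reuse the same arrays, so the count is not independent support for the direction. The estimate stayed at -0.76 with the methods' t-test, the replicate block, the higher floor and detection on at least 1 array, so these settings bear on the call alone. Without each replicate in turn it ranged from -0.80 to -0.73. With the filter on detection on all 6 arrays it was not tested. MiR-181b-5p kept its direction and call in 19 of 21 alternatives, and was -0.18 with 75th percentile scaling and -0.078 with no normalization. The same t-test, block, floor and at-least-1-array settings left it at 0.30. With normexp it was 0.075, and without each replicate in turn 0.24 to 0.35. The number of members past the threshold was 2, and 1 with no normalization, with totals as deposited and with detection required on all 6 arrays, and stayed 2 without each replicate in turn. The difference of miR-181a-5p minus miR-181b-5p was -1.06, and ranged from -1.15 to -1.01 without each replicate (exact p = 0.20, the smallest then possible) and from -5.20 (totals as deposited) to -0.17 (normexp) otherwise. The 270 miRNAs past the threshold became 260 to 266 without each replicate and 194 to 303 over all alternatives. Both ends come from a changed filter, with 194 of 231 at detection on all 6 arrays and 303 of 348 at detection on any array. The methods' t-test called 266 of 311 at its unadjusted threshold and 264 after Benjamini-Hochberg. Replicate numbers in the labels were not used as pairs in the main fit. Deviations of same-numbered arrays correlated at 0.02, -0.12 and 0.15, and those of differently numbered arrays at -0.13 to 0.14. With so few arrays this cannot show whether same-numbered arrays shared mice. With the replicate block, miR-181a-5p was -0.76, miR-181b-5p 0.30 (limma adjusted p = 0.0197), the difference -1.06 (SE 0.075), 2 members and 262 miRNAs passed. No passenger strand (0 of 6), and neither miR-181c-5p nor miR-181d-5p, passed a filter on detection to be tested in any alternative. Slide as a block could not be fitted, since each cell type lay on 1 slide. Signal over background limits the family, as 1 of 4 members was detected on all 6 arrays.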

Other observations

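The summed totals of the passenger strands of miR-181b fell below 0 after the scanner's background subtraction on the type L arrays. MiR-181b-1-3p was at 0.0258, -0.173 and -0.0748 on the type H arrays and at -1.56, -1.08 and -1.20 on the type L arrays, and miR-181b-2-3p was at -0.175, -0.108 and -0.240 against -1.98, -1.29 and -1.65. The cell types did not overlap for either strand. Neither was detected on any array, and the difference was not tested. MiR-181d-3p ran the other way, at -0.780, -0.586 and -0.993 on the type H arrays and 0.0471, -0.355 and -0.326 on the type L arrays.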
